A study of Mus musculus with 6 samples.

Results

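Glucose enters and leaves the liver cell through a set of enzymes that come in tissue forms, and 36 genes of these forms and their regulators are described here. They were chosen by symbol from the 43346 genes of the deposited table, all 36 were found, and all 36 passed the low-count filter that left 18359 genes for testing. RNA was sequenced from 6 mouse liver tumours induced with diethylnitrosamine (DEN), a carcinogen activated in hepatocytes. Per the labels, every mouse carried Sulf2-TTR and overexpressed SULF2, an extracellular sulfatase that edits heparan sulfate, and TTR names the transthyretin gene, whose promoter is used to drive transgenes in hepatocytes. The groups were 3 tumours with wild-type Gli1 (WT) and 3 with Gli1 knocked out (KO). GLI1 is a DNA-binding effector of Hedgehog signalling. Age, sex, the kind of knockout allele and whether each tumour came from a separate mouse are not given in the labels, so p-values measure only the spread between these samples. No DEN-free liver was among the samples, so liver forms and tumour forms are compared between genotypes and not between tumour and liver.

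Glycolysis breaks glucose down to pyruvate, and gluconeogenesis rebuilds glucose from lactate, glycerol and amino acids. The adult liver does both, with its own forms at several steps: the transporter GLUT2, liver-type phosphofructokinase and L-type pyruvate kinase for uptake and breakdown, and PEPCK, fructose-1,6-bisphosphatase and glucose-6-phosphatase for release. Many liver tumours instead raise forms used by other tissues, such as the transporter GLUT1, hexokinase 2 and pyruvate kinase M. By this textbook division, 10 members were classed as adult liver forms, 13 as forms of other tissues or tumours, and 13 as shared. The liver class was Slc2a2, Gckr, Pfkl, Pfkfb1, Pklr, Pcx, Pck1, Fbp1, G6pc and Slc37a4. The class of other tissues or tumours was Slc2a1, Hk1, Hk2, Hk3, Pfkm, Pfkp, Pfkfb3, Aldoa, Aldoc, Pkm, Ldhb, Slc16a3 and Fbp2. Eno3, a muscle form, and Pfkfb2, a heart form, were placed among the shared.

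Upstream sequence is shown for 3 members whose WT and KO libraries did not overlap and which carry letters known from the control of this pathway. These are RefSeq sequences of the mouse build GRCm38.p6, written on the gene's strand, with matches in capitals. The Pklr stretch (chr3:89136373-89136571, plus strand) holds the letters of a carbohydrate response element, a pair of half-sites, CANGNG and CNCNTG, 5 bases apart, whose first letter lies 170 bases before the RefSeq start. The Slc2a1 stretch (chr4:119108684-119108713, plus strand) and the Pdk1 stretch (chr2:71872974-71873223, plus strand) hold core letters bound by hypoxia-inducible factors, ACGTG or GCGTG on either strand. In Slc2a1 the matches begin 61 and 36 bases before the start, and in Pdk1 78 bases before it. The Pklr stretch lies inside the deposited gene span, 89136142 to 89146784, and was cut at an annotated exon before the RefSeq start. The Slc2a1 stretch, cut to its matches, runs past the deposited gene start at 119108711.
Pklr: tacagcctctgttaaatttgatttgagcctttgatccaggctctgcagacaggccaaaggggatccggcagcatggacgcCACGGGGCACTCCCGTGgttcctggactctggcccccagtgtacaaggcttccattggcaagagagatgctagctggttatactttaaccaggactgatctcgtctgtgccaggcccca
Slc2a1: CACGCctctcagagtcccgccccggACGTG
Pdk1: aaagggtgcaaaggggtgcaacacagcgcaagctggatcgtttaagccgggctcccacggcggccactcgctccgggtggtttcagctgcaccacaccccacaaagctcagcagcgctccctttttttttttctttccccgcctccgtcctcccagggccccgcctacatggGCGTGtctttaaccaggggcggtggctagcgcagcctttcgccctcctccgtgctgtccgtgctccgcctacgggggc
All 36 members matched the RefSeq promoter table, in 58 windows, and the 250 bases before each start were searched on both strands. The carbohydrate response element letters were found for 2 members, Pklr and Pfkfb2, in 3.45% of member windows and 0.454% of all 32851 windows. ACGTG or GCGTG was found for 27 of 36 members, in 63.8% of member windows and 38.6% of all windows. CACGTG, which contains ACGTG, was found in 13.8% and 6.02%, and TATAAA in 6.90% and 12.4%. A match is a description of letters and not of binding.

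No member passed the test between genotypes. With edgeR's quasi-likelihood test, 0 of 36 members and 0 of 18359 genes (0%) had an adjusted p (FDR) under 0.05, and the smallest FDR was 1.000 among the members and 0.407 among all genes. At an unadjusted p under 0.05 there were 2 members, Pklr and Slc2a1 (5.56% of 36), against 665 genes, or 3.62% of all tested. The WT and KO libraries did not overlap for 5 members (13.9%), against 8.11% of all genes. Pklr and G6pc lay higher in every KO tumour, where the background in that direction is 4.15%. Slc2a1, Pdk1 and Fbp1 lay lower in every KO tumour, where it is 3.96%. The log2 fold change, KO minus WT, was below 0 for 23 members (63.9%) and for 51.8% of all genes. DESeq2 called 62 genes, 0.317% of the 19548 it adjusted over, and 0 members, and limma voom called 0 genes. The smallest adjusted p of DESeq2 among members was 0.188, for Pklr. An unadjusted DESeq2 p under 0.05 was seen for 3 of 36 members and for 1090 of all genes. The share over all genes was not computed for that count, so the members cannot be set against it. In whole tumours, fewer cells of a type and less RNA per cell cannot be told apart.

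Libraries held 75205624 to 132979502 counted reads. The liver marker Alb was at 114643 to 167494 normalized CPM (CPM on the library size scaled by edgeR's TMM factor) in every tumour. The targeted gene Gli1 had 10, 20 and 7 reads in WT and 4, 3 and 3 in KO tumours, which is below the low-count filter. Sulf2 counts did not show the labelled overexpression evenly, since WT tumours 1, 2 and 3 were at 76.4, 11.6 and 5.33 normalized CPM and KO tumours at 164, 2.63 and 10.2. The species of the transgene is not labelled, so these counts may not cover it. TMM scaling factors were 0.901, 1.01 and 0.929 in WT replicates 1, 2 and 3, and 1.10, 1.000 and 1.08 in the KO replicates. With total reads and no scaling factor, the median log2 fold change of all genes was 0.15 instead of -0.01, and 16 members instead of 23 lay below 0. On the deposited RPKM, which carry no such factor, Slc2a1, Pdk1 and Fbp1 overlapped between genotypes, while Pklr, G6pc and Slc37a4 were higher in every KO tumour. That is 3 members, where 14.8% of all genes did not overlap in RPKM.

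Ordered by the length-scaled RPKM, which allows genes of different length to be compared, the tumours expressed mainly the liver or shared form at most steps with several forms among the members. Pck1 had the highest median RPKM of the members at 679, followed by Fbp1 at 315 and Ldha at 236, and Slc16a3 the lowest at 0.113. Pklr made up 77.7 to 93.9% of the summed RPKM of the pyruvate kinase genes, Slc2a2 92.9 to 98.0% of that of Slc2a1 and Slc2a2, and Pck1 96.3 to 99.8% of that of the PEPCK genes. Liver-type Pfkl made up 55.6 to 73.2% of the phosphofructokinase genes, with Pfkm at 20.3 to 40.9% and Pfkp at 3.43 to 6.47%. Among the genes for the enzyme that makes and degrades fructose 2,6-bisphosphate, the strongest activator of phosphofructokinase, no form was dominant in every tumour: Pfkfb1 took 37.8 to 73.8%, Pfkfb2 19.1 to 39.6% and Pfkfb3 5.83 to 38.1%.

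**Figure D1:**
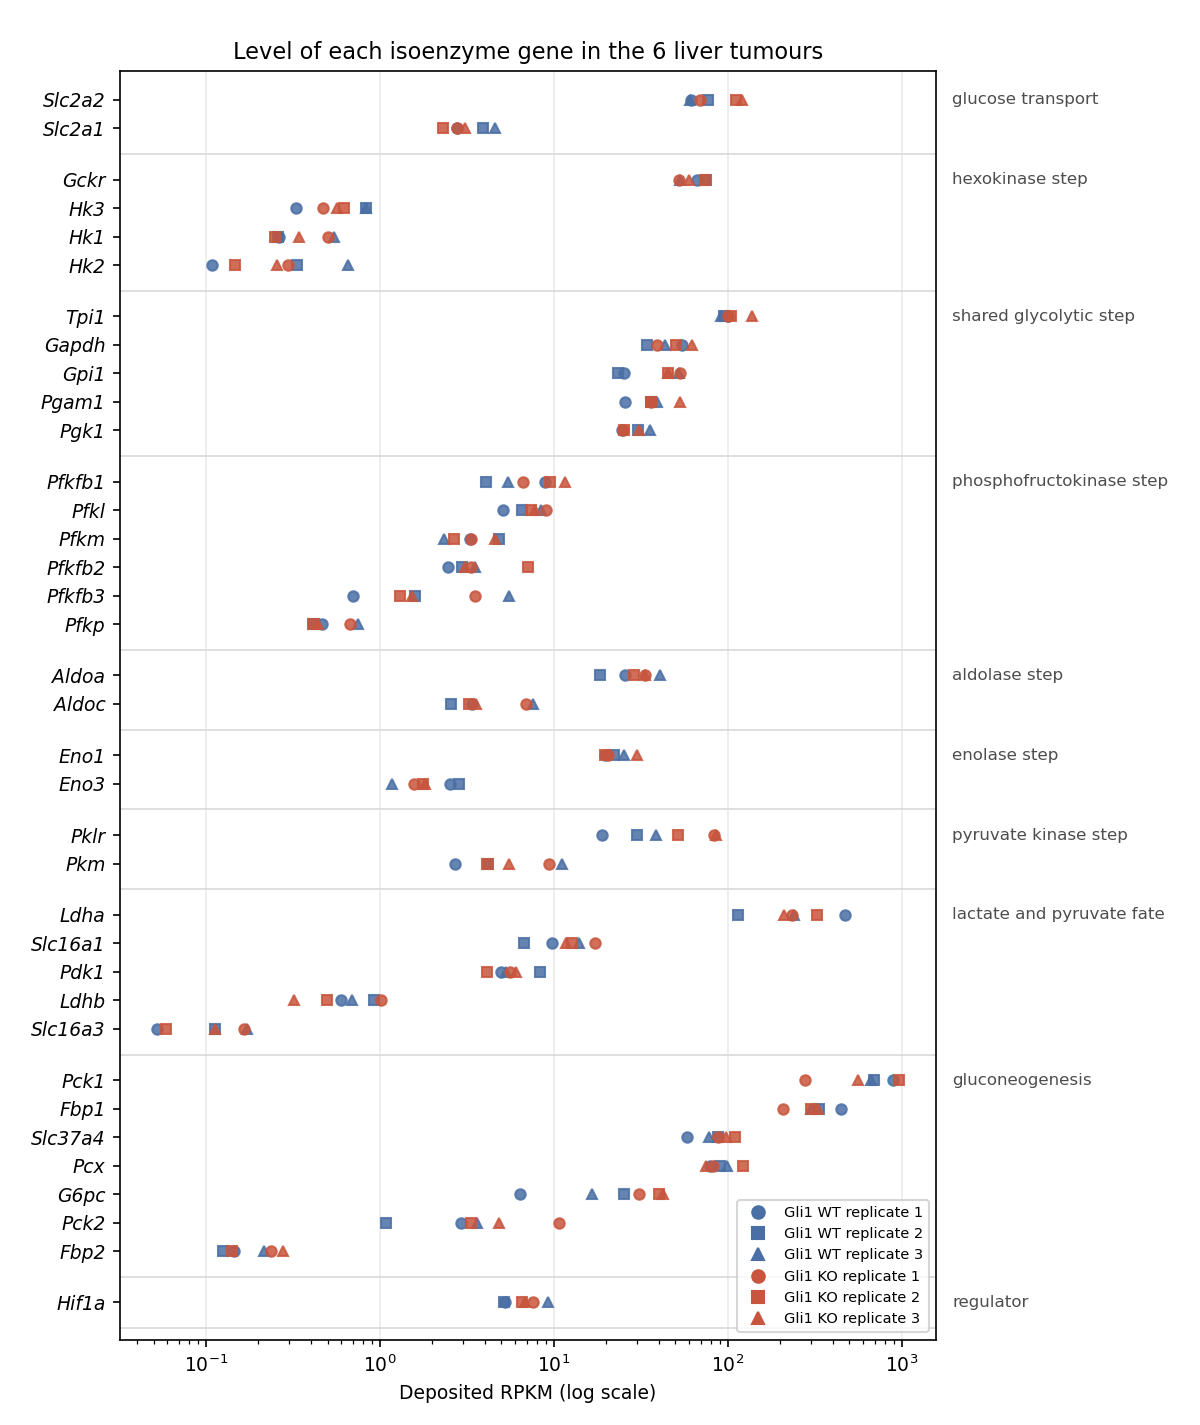
Deposited RPKM (log scale) of the 36 members in each of the 6 tumours, grouped by pathway step and ordered within a step by median; blue is Gli1 WT, red Gli1 KO, and the marker shape is the replicate number. At most steps 1 form lies far to the right of another, as Fbp1 at a median of 315 against Fbp2 at 0.180. Pck1 at 679 likewise lies far from Pck2, a gene classed as shared, at 3.48. Pfkl at 7.58 and Pfkm at 3.33 lie closer together.

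Slc2a1 (ENSMUSG00000028645, chromosome 4, 119108711 to 119137330) encodes GLUT1, the high-affinity transporter of red cells, the brain and many tumours. WT replicates 1, 2 and 3 had 10.2, 13.2 and 16.0 normalized CPM, against 8.08, 7.41 and 9.22 in the KO replicates. Every KO tumour lay below every WT tumour, with means of 13.1 ± 2.89 (SD, n = 3) in WT and 8.24 ± 0.914 in KO. The log2 fold change was -0.67 ± 0.22 (SE), with an unadjusted edgeR p of 0.0182 and an FDR of 1.000. Slc2a2 (chromosome 3, 28697903 to 28728363) encodes GLUT2, the low-affinity transporter through which hepatocytes exchange glucose in both directions. It had 220, 250 and 203 CPM in WT tumours against 195, 346 and 349 in KO. KO replicates 2 and 3 were above all WT tumours and KO replicate 1 was below them, and the log2 fold change of 0.40 ± 0.28 lay within the spread between tumours (unadjusted edgeR p of 0.189). Without KO replicate 1 it was 0.64 ± 0.22.

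**Figure D2:**
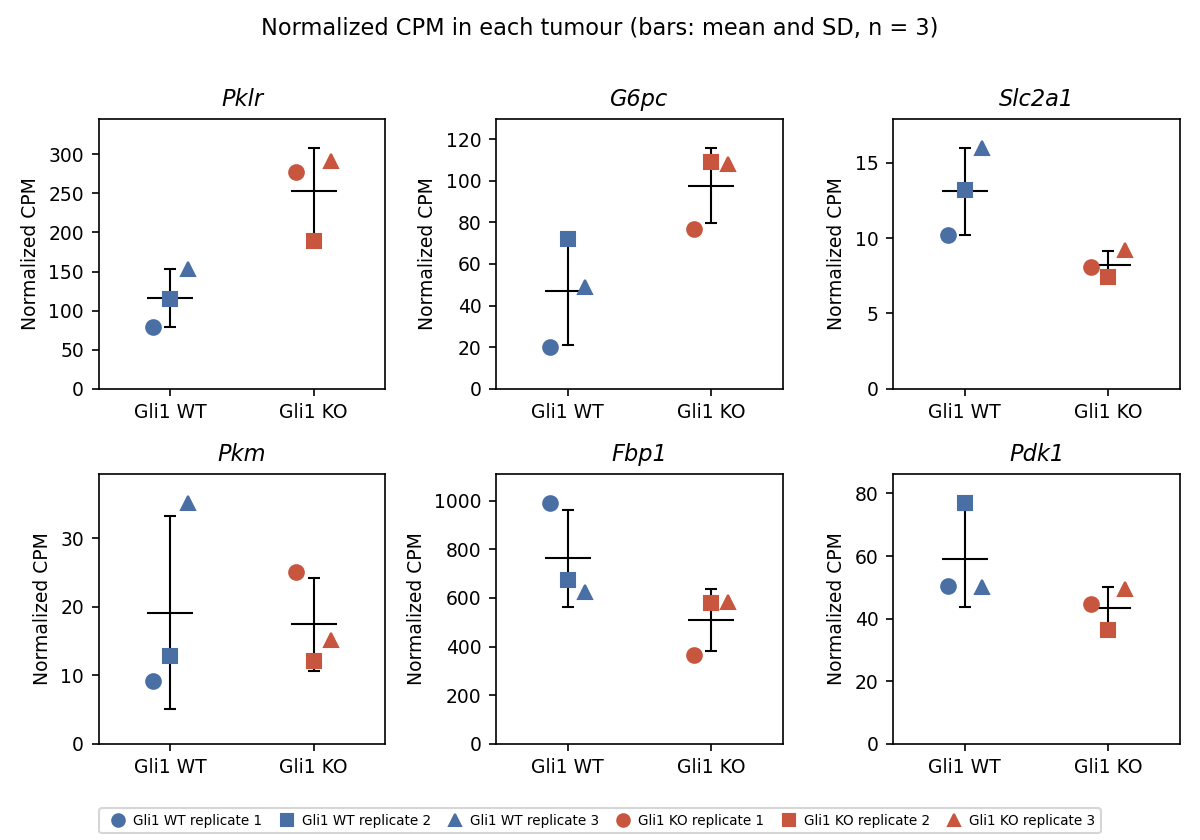
Normalized CPM of 6 members in each tumour, with the genotypes on the x axis; horizontal bars are means and error bars are SD (n = 3). Pklr and G6pc are higher and Slc2a1, Fbp1 and Pdk1 lower in every KO tumour, by as little as 49.6 against 50.1 CPM for Pdk1, while Pkm overlaps and is highest in WT replicate 3 at 35.2 CPM.

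Hexokinases trap glucose as glucose 6-phosphate. The high-affinity forms were near the bottom of the range: Hk1, the housekeeping form, had 2.42 to 5.68 normalized CPM, Hk2, the form of muscle, fat and many tumours, 0.839 to 4.78, and Hk3, best known from white blood cells, 1.58 to 3.74. Hk2 was at 0.839, 2.35 and 4.78 CPM in WT replicates 1, 2 and 3, and at 1.81, 0.986 and 1.59 in the KO replicates. WT replicate 1 was the lowest tumour and WT replicate 3 the highest, so the WT group spanned the KO group. Its log2 fold change was -0.86 ± 0.62 (unadjusted edgeR p of 0.212), and -0.12 without WT replicate 3. Hk3 had 1.58, 3.65 and 3.74 CPM in WT tumours against 1.77, 2.57 and 2.17 in KO, with overlapping groups and a log2 fold change of -0.46 ± 0.40, which was -0.76 without WT replicate 1 and -0.26 without WT replicate 3. Hk1 was at -0.19 ± 0.40. Gckr, a hepatocyte regulator of glucose phosphorylation, was the most abundant gene of this step. It had 175, 179 and 131 CPM in WT tumours against 109, 167 and 126 in KO, which overlapped (-0.27 ± 0.24). That value was -0.46 without KO replicate 2 and -0.14 without KO replicate 1.

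Phosphofructokinase commits sugar to glycolysis. The log2 fold changes of its liver, muscle and platelet forms were 0.06 ± 0.19 for Pfkl, -0.19 ± 0.31 for Pfkm and -0.31 ± 0.31 for Pfkp. Pfkp had 5.69, 4.57 and 8.54 normalized CPM in WT tumours against 6.45, 4.42 and 4.33 in KO, highest in WT replicate 3, without which its log2 fold change was -0.02. Without KO replicate 1 it was -0.51. Pfkfb1, the liver form of the bifunctional enzyme, had 46.5, 19.4 and 26.9 CPM in WT tumours against 27.5, 43.0 and 48.6 in KO, with overlapping groups (0.36 ± 0.37). It was 0.78 ± 0.31 without WT replicate 1 and 0.12 ± 0.35 without WT replicate 2. Pfkfb2, the heart form, had 23.1, 25.5 and 31.0 CPM in WT tumours against 24.7, 58.0 and 23.5 in KO (0.42 ± 0.37). KO replicate 2 alone carried that difference, which was -0.13 without it. Part of the Pfkfb2 signal is uncertain, since the near-identical and overlapping gene Gm29427 took 20 to 28.4% of the reads of the pair. Pfkfb3, the inducible form with high kinase activity, was the most variable gene of this step, at 6.91, 14.2 and 51.0 CPM in WT tumours against 27.4, 11.2 and 12.1 in KO. Its log2 fold change was -0.51 ± 0.74, and 0.68 without WT replicate 3.

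At the steps between hexokinase and enolase that have 1 main form, the groups overlapped for every member. Tpi1, triose phosphate isomerase, had 288, 247 and 246 normalized CPM in WT tumours against 227, 258 and 316 in KO (log2 fold change 0.03 ± 0.21). Pgk1, which makes the first ATP of the pathway, had 72.2, 81.3 and 97.5 CPM in WT tumours against 57.7, 64.1 and 72.6 in KO. KO replicate 3 reached above WT replicate 1, so the groups overlapped, and the log2 fold change was -0.37 ± 0.18 (unadjusted edgeR p of 0.0830). Gpi1, glucose 6-phosphate isomerase, had 148, 125 and 288 CPM in WT tumours against 245, 230 and 214 in KO (0.30 ± 0.34). Without WT replicate 3 its log2 fold change was 0.76 ± 0.20 (unadjusted edgeR p of 0.0104, FDR 0.466). Gapdh was at -0.03 ± 0.29 and Pgam1 at 0.11 ± 0.23. Gapdh has 70 near-identical copies in the genome, which took 1.41 to 4.66% of the reads of the set, so its counts are uncertain to that extent.

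Aldolase A, the muscle and tumour form, and aldolase C, the brain form, were both present. Aldoa had 92.7, 59.8 and 137 normalized CPM in WT tumours against 95.1, 89.8 and 96.4 in KO (log2 fold change -0.04 ± 0.30). Aldoc had 14.4, 9.92 and 30.1 CPM in WT tumours against 23.1, 12 and 12.2 in KO (-0.20 ± 0.46). WT replicate 3 was the highest tumour for both genes. Enolase makes phosphoenolpyruvate. Eno1, the widespread form, had 138, 140 and 166 CPM in WT tumours against 114, 119 and 169 in KO (-0.15 ± 0.22). Eno3, the muscle form, had 5.74, 5.89 and 2.50 CPM in WT tumours against 2.80, 3.47 and 3.29 in KO (-0.56 ± 0.37, unadjusted edgeR p of 0.172). WT replicate 3 was the lowest tumour for Eno3, and without it the log2 fold change was -0.87. Eno1 is uncertain because 3.58 to 21.7% of the reads of it and its near-identical copies lay on those copies, mainly Eno1b.

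Pyruvate kinase, the last step of glycolysis, held the log2 fold change of largest size among the members. Pklr (ENSMUSG00000041237, chromosome 3, 89136142 to 89146784) encodes the L form of hepatocytes and, from another promoter, the R form of red cells. WT replicates 1, 2 and 3 had 79.3, 115 and 153 normalized CPM, against 278, 189 and 291 in the KO replicates. The lowest KO tumour was above the highest WT tumour, with means of 116 ± 36.7 (SD, n = 3) in WT and 253 ± 55.6 in KO. The log2 fold change was 1.13 ± 0.31 (SE), with an unadjusted edgeR p of 0.00834 and an FDR of 1.000. It ranged from 0.92 to 1.38 with each library left out in turn. The 3′ end of Pklr overlaps Hcn3, a channel gene on the other strand, which had 22.5, 34.8 and 31.4 CPM in WT tumours against 78.6, 43.2 and 82.1 in KO (log2 fold change 1.20 ± 0.30). No label or header says whether strand was used in counting, so reads of the pair cannot be told apart where they overlap. Other members also overlap a counted gene and are uncertain to an unknown extent: Pfkp with Pitrm1 (3186 and 13175 reads in all), Pfkm with Senp1 (6479 and 5697), Pfkfb1 with Apex2, Pfkfb2 with Yod1, Hk3 with Unc5a and Gpi1 with Gm26762. Erythroid markers summed to 93.5 to 159 CPM in WT tumours against 103 to 185 in KO, and their part in the Pklr values was not tested. Pkm (chromosome 9, 59656368 to 59679375), whose splice forms M1 and M2 these gene counts do not separate, had 9.22, 12.8 and 35.2 CPM in WT tumours against 25.0, 12.1 and 15.1 in KO. The groups overlapped, the log2 fold change was -0.14 ± 0.54, and without WT replicate 3 it was 0.66.

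Lactate and pyruvate handling showed wide spread between tumours of 1 genotype. Ldha, the lactate dehydrogenase subunit dominant in liver, had 1827, 407 and 869 normalized CPM in WT tumours against 715, 1091 and 654 in KO. WT replicate 1 was highest and WT replicate 2 lowest, and the log2 fold change was -0.33 ± 0.54. Ldhb, the heart subunit, had 1.23, 1.72 and 1.33 CPM in WT tumours against 1.63, 0.880 and 0.531 in KO (-0.49 ± 0.47). Without KO replicate 1 it was -1.0, and without KO replicate 3 it was -0.18. The lactate carriers Slc16a1 (MCT1) and Slc16a3 (MCT4, typical of glycolytic cells) had log2 fold changes of 0.23 ± 0.30 and -0.23 ± 0.55, and Slc16a1 took 98.3 to 99.5% of their summed RPKM. Pdk1 (chromosome 2, 71873224 to 71903858) encodes a kinase that switches off pyruvate dehydrogenase and so keeps pyruvate out of the mitochondrial cycle. It had 50.4, 77.1 and 50.1 CPM in WT tumours against 44.8, 36.3 and 49.6 in KO. The groups did not overlap, but WT replicates 1 and 3 lay close to KO replicate 3. The log2 fold change was -0.44 ± 0.23 (unadjusted edgeR p of 0.0968), and -0.21 without WT replicate 2.

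In gluconeogenesis, G6pc was higher and Fbp1 lower in every KO tumour. G6pc (ENSMUSG00000078650, chromosome 11, 101367561 to 101377903) encodes the catalytic subunit of glucose-6-phosphatase, which releases free glucose. It had 20.2, 72.1 and 49.0 normalized CPM in WT tumours against 76.6, 109 and 108 in KO. KO replicate 1 was only slightly above WT replicate 2, and the means were 47.1 ± 26.0 (SD, n = 3) and 97.7 ± 18.2. The log2 fold change was 1.05 ± 0.44 (unadjusted edgeR p of 0.0512, FDR 1.000). It was 0.69 without WT replicate 1, which was the lowest tumour, and 1.5 without WT replicate 2. Slc37a4, the transporter that feeds G6pc in the endoplasmic reticulum, was at 0.20 ± 0.22. Fbp1 (chromosome 13, 62864753 to 62888282), the liver fructose-1,6-bisphosphatase, had 993, 675 and 625 CPM in WT tumours against 364, 580 and 584 in KO. All KO tumours were below all WT tumours, with a log2 fold change of -0.59 ± 0.30 (unadjusted edgeR p of 0.0958). Without KO replicate 1 it was -0.38, and without WT replicate 1 it was -0.35.

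Pck1, the cytosolic PEPCK that diverts oxaloacetate to glucose, had 3961, 2816 and 2778 normalized CPM in WT tumours against 978, 3721 and 2010 in KO. KO replicate 1 was the lowest tumour by far and KO replicate 2 lay among the WT tumours, giving a log2 fold change of -0.51 ± 0.49 (unadjusted edgeR p of 0.336) and -0.15 without KO replicate 1. Without KO replicate 2 it was -1.08 ± 0.45. Pck2, the mitochondrial PEPCK, had 13, 4.39 and 14.9 CPM in WT tumours against 37.4, 12.9 and 17.1 in KO. KO replicate 1, lowest for Pck1, was highest for Pck2. The Pck2 log2 fold change was 1.06 ± 0.56 (unadjusted edgeR p of 0.103), and 0.49 without KO replicate 1. Pcx, pyruvate carboxylase, was at -0.13 ± 0.28, and Fbp2, the muscle bisphosphatase, was near the detection limit at 15 to 34 reads a library (0.20 ± 0.44). Hif1a, the oxygen-regulated factor that induces many glycolytic genes, had 40.2, 36 and 66.6 CPM in WT tumours against 45.7, 43.6 and 42.3 in KO, with a log2 fold change of -0.12 ± 0.25. Its control is known to act mainly on the protein, which was not measured.

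Ratios of 2 forms within a library do not depend on library scaling, and 10 such pairs were compared on log2 RPKM with 0.01 added. For 2 of 10 pairs all KO tumours lay on 1 side of all WT tumours. In both the ratio was lower in KO, toward the liver form. No share over all gene pairs was computed, and of single genes 14.8% did not overlap in RPKM. Each of the 2 pairs holds a gene already apart in normalized CPM, Pklr or Slc2a1. The partners Pkm (log2 fold change -0.14) and Slc2a2 (0.40) overlapped between genotypes. The log2 ratio of Pkm to Pklr was -2.78, -2.85 and -1.80 in WT and -3.16, -3.65 and -3.95 in KO, a difference of -1.11. The log2 ratio of Slc2a1 to Slc2a2 was -4.47, -4.29 and -3.71 in WT and -4.63, -5.59 and -5.28 in KO, a difference of -1.01. A two-sided exact permutation test gave p = 0.1 for each, the smallest that 3 against 3 allow, and 0.400 after Benjamini-Hochberg adjustment over the 10 pairs. For the transporter pair, KO replicate 1 lay close to WT replicate 1. Among the other pairs, the log2 ratio of Pck2 to Pck1 was 1.78 higher in KO, from -9.30 to -7.52 in WT and from -8.16 to -4.70 in KO (exact permutation p = 0.200). That difference was 0.85 without KO replicate 1 and 2.58 without KO replicate 2. Pfkp to Pfkl differed by -0.36 and Fbp2 to Fbp1 by 0.77 (exact permutation p = 0.200 each). The remaining pairs, Pfkm to Pfkl, Pfkfb3 to Pfkfb1, Eno1 to Eno3, Ldhb to Ldha and Slc16a3 to Slc16a1, differed by -0.56 to 0.30, with exact permutation p-values of 0.400 to 0.800.

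**Figure D3:**
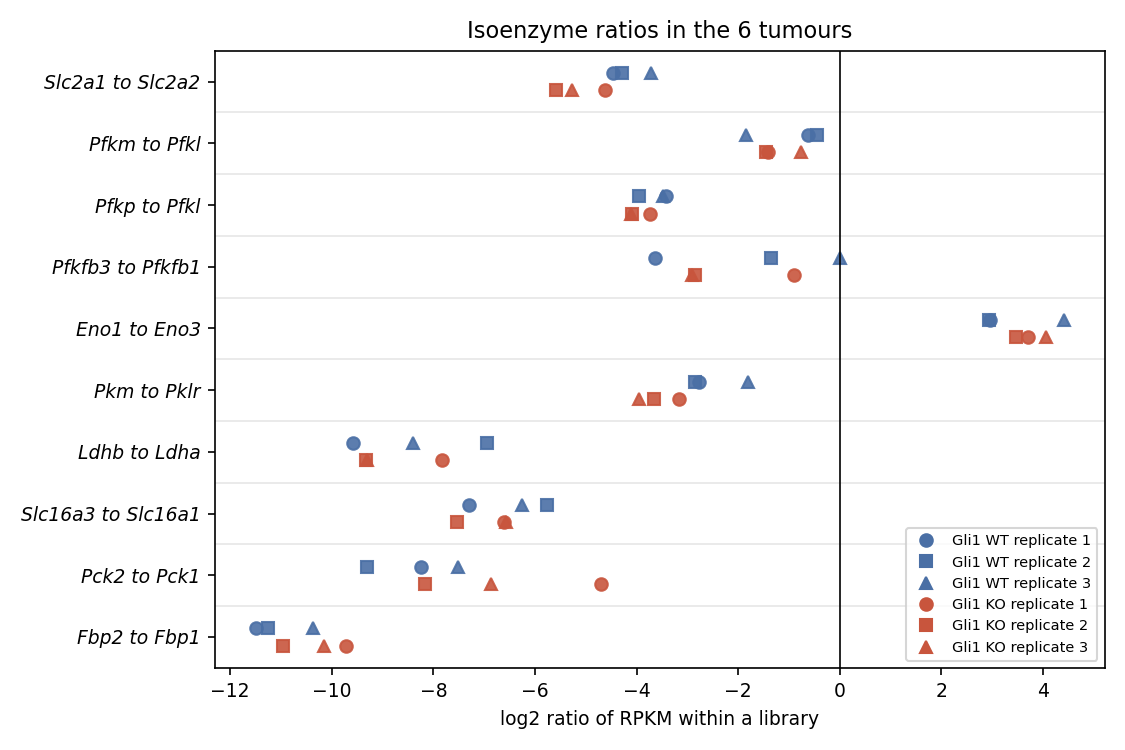
Log2 ratio of the RPKM of 2 forms within each tumour, 1 row a pair, with WT tumours (blue) above KO tumours (red). The groups separate for Slc2a1 to Slc2a2 and for Pkm to Pklr, where KO tumours reach -5.59 and -3.95, and overlap in the other rows.

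By class, the 13 forms of other tissues or tumours had a median log2 fold change of -0.23, with 12 below 0 and only Fbp2 above it. That count depends on the scaling. With total reads and no scaling factor, Aldoa (0.14) and Pkm (0.05) were also above 0 and Hk1 was at 0.00. Aldoc (-0.01), Pfkm (-0.04) and Slc16a3 (-0.05) were then close to 0, while Hk2 (-0.69) and Slc2a1 (-0.51) stayed farther below. The 10 adult liver forms had a median of 0.13, with 6 above 0 and 4 below, and the 13 shared genes a median of -0.03. These counts depend on the placing of Eno3 (-0.56) and Pfkfb2 (0.42) among the shared. All 36 members had a median of -0.14, and all genes tested -0.01. The class values rested on single tumours. WT replicate 3 was the highest tumour for 10 of the 13 forms of other tissues, and without it the median of those forms was 0.22 and that of all members 0.21. The adult liver median was 0.24 without WT replicate 3, but 0.01 if WT replicate 1 was left out. The shared median was 0.11 without WT replicate 1 and -0.18 without WT replicate 2. WT replicate 3 and KO replicate 1 were the 2 highest tumours for 6 of the 13: Hk1, Pfkp, Pfkfb3, Aldoc, Pkm and Slc16a3. Shares over all genes were not computed for these counts of highest tumours. Over all genes tested, the deviations of these 2 tumours from their genotype means correlated at 0.57. No other WT and KO tumours correlated higher, so the likeness is not particular to the members. Without WT replicate 3 and KO replicate 1, Pklr was at 1.31 ± 0.33, G6pc at 1.24 ± 0.61 and Slc2a1 at -0.49 ± 0.24.

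**Figure D4:**
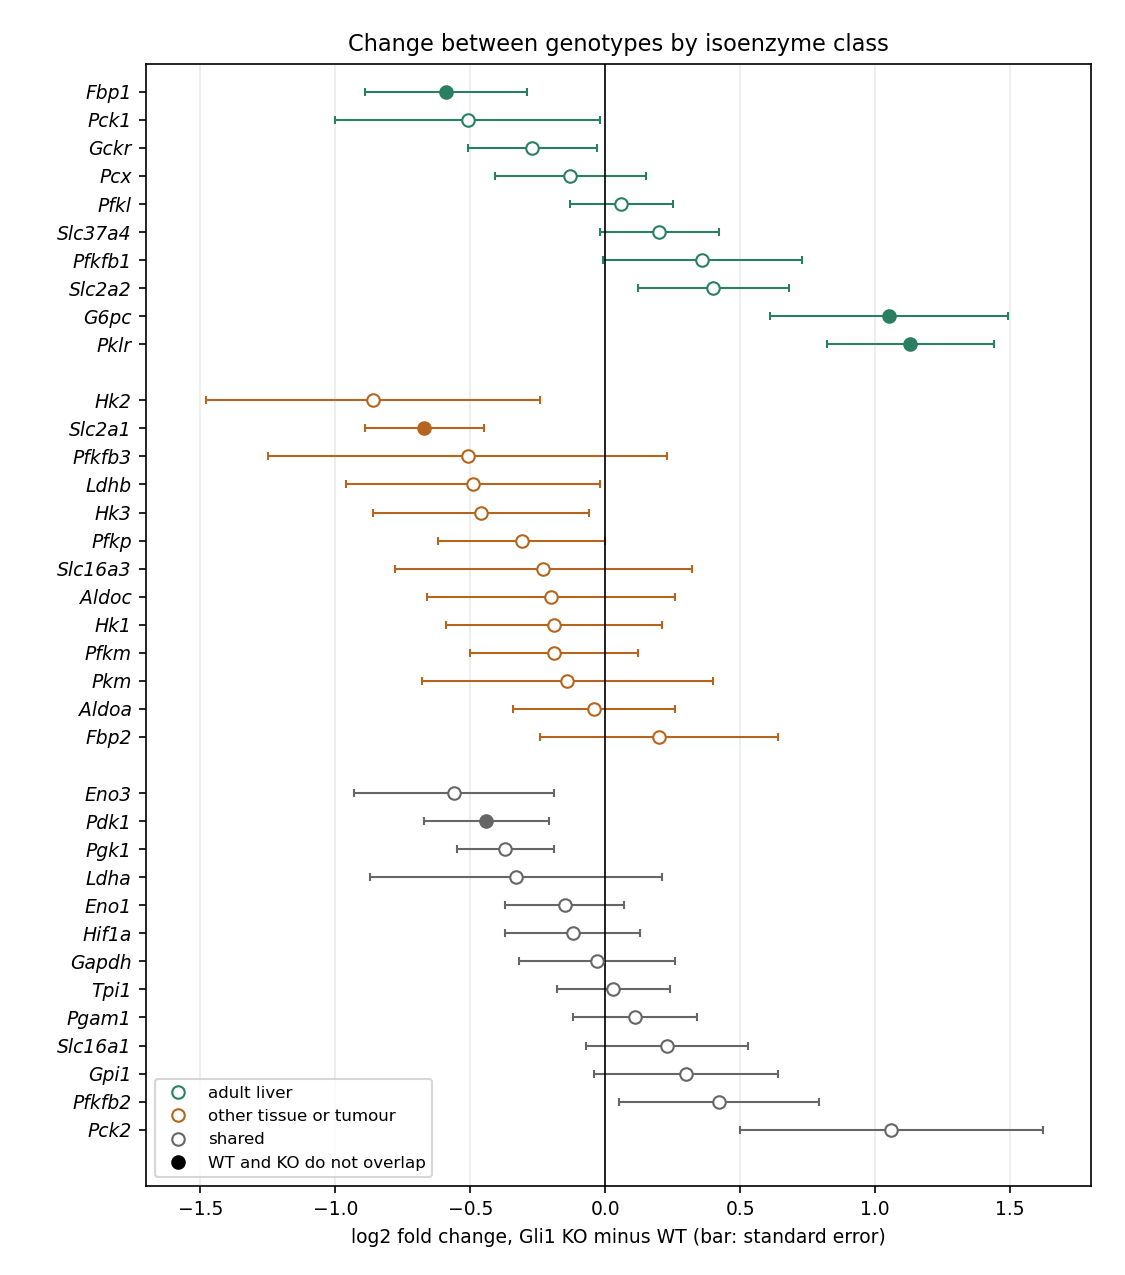
Log2 fold change of each member, Gli1 KO minus WT, from edgeR with its standard error as the bar, grouped by class; filled points are members whose WT and KO libraries do not overlap. Of the forms of other tissues or tumours, 12 of 13 lie left of 0, and Pklr at 1.13 and G6pc at 1.05 lie farthest right among the adult liver forms.

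Markers of other cell types varied across the same tumours. Cholangiocyte markers, 6 of 6 tested and 5 of 6 below 0, summed to 80.0, 39.0 and 481 normalized CPM in WT tumours against 434, 75.4 and 472 in KO, mostly from Spp1. Krt19, which defines bile duct cells, stayed at 0.200 to 3.04 CPM. Stellate cell and fibroblast markers, with 9 of 10 above 0, summed to 138, 166 and 446 in WT and 730, 309 and 327 in KO. Neutrophil markers, with 9 of 9 tested below 0, summed to 9.96, 15.4 and 45.8 in WT and 10.9, 5 and 7.96 in KO. T and NK cell markers, with 9 of 10 below 0, summed to 4.19 to 7.30 in WT and 2.31 to 3.88 in KO. B and plasma cell markers, with 5 of 6 tested below 0, summed to 4.36 to 6.60 and 2.04 to 3.63. Macrophage markers, with 8 of 9 below 0, summed to 103 to 340 and 92.2 to 143. Endothelial markers, with 8 of 10 below 0, summed to 341 to 406 in WT and 249 to 302 in KO. The 2 above 0 were Pecam1 (log2 fold change 0.01) and Cdh5 (0.07). GLUT1, Hk3 and Pkm are also expressed by blood, immune or duct cells, and the part of these cells in the values of Slc2a1, Hk3 and Pkm was not tested. Of the skeletal muscle markers, Myh1 and Myh2 had 0 reads in every tumour and Ckm had at most 0.0225 CPM. Mylpf had 0.270 to 0.674 CPM, and Des, which stellate cells also express and which is in both lists, had 1.42 to 1.55 in WT and 2.05 to 4.42 in KO (log2 fold change 1.13 ± 0.35). The whole muscle list, with 2 of 10 genes tested, summed to 1.87 to 2.34 CPM in WT tumours against 2.48 to 4.75 in KO tumours. Most of that sum was Des, and the other tested gene, Mylpf, overlapped between genotypes at a log2 fold change of -0.46 ± 0.45. Cell cycle genes, with 11 of 12 above 0, summed to 51.0, 35.9 and 84.4 CPM in WT tumours against 79.8, 46.3 and 215 in KO.

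Other genes of glucose metabolism were read from lists of the same pathway, and 0 genes of any of them passed edgeR's adjustment. Of 14 further isoenzymes and transporters tested, 3 were above 0 and 11 below (median log2 fold change -0.10). Slc2a3, which encodes the neuronal and leukocyte transporter GLUT3, had 1.13, 1.36 and 2.46 CPM in WT tumours against 0.617, 0.775 and 0.857 in KO (-1.14 ± 0.40, unadjusted edgeR p of 0.0271). Eno2, the neuronal enolase, was under 1 CPM in every tumour at 0.71 ± 0.42. Of 13 pyruvate oxidation genes, 10 were below 0 (median -0.14), with Pdk4, a fasting-induced kinase of pyruvate dehydrogenase, at -0.71 ± 0.35 and its partner subunit gene Pdhx at -0.32 ± 0.19. For both, all KO tumours were below all WT tumours, by as little as 5.08 against 5.11 CPM for Pdk4. They were 2 of the 13, against 3.96% of all genes in that direction, and both overlapped between genotypes in RPKM.

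Glycogen genes were above 0 for 12 of 17 (median 0.05), with the phosphorylase kinase subunits Phka2 at -0.27 ± 0.16 and Phkg2 at -0.42 ± 0.27. The pentose phosphate pathway, which branches off at glucose 6-phosphate, had 6 of 8 above 0 (median 0.12), with Rpia at 0.36 ± 0.27 and Rpe at 0.14 ± 0.15. Fructose and galactose genes had 3 of 6 above 0 (median 0.02), with the aldose reductase Akr1b3 at 0.25 ± 0.21 and the fructokinase Khk at 0.18 ± 0.27. Hypoxia targets outside glycolysis had 10 of 15 below 0 (median -0.23), and no gene among them had groups that did not overlap. Vegfa, the endothelial growth factor, was at -0.43 ± 0.22 and Bnip3, a mitophagy receptor, at -0.57 ± 0.36. Of 23 hepatic regulators of carbohydrate metabolism, 15 were below 0 (median -0.17). Cebpb, a bZIP factor that drives gluconeogenic genes, had 26.3, 27.3 and 27.2 CPM in WT tumours against 15.2, 21.4 and 22.8 in KO (-0.44 ± 0.19, unadjusted edgeR p of 0.0498). Irs1, an adaptor of the insulin receptor, was at 0.60 ± 0.29, and Mlxipl, which encodes the factor ChREBP that binds carbohydrate response elements, at -0.21 ± 0.37.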

How the data were processed

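RNA sequencing of 3 Gli1 WT and 3 Gli1 KO liver tumours was analysed from 1 table in which the authors deposited, for every gene, raw counts and RPKM of each library. The submitters' processing notes name bcl2fastq, TopHat2 2.0.6 and HTSeq, without roles, and the human builds hg19 and GRCh37. The gene identifiers are mouse Ensembl identifiers, so deposited coordinates were read as GRCm38. Genotypes and replicate numbers came from the sample titles.

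The test was that of edgeR 4.0.16 (R 4.3.3) on the counts: filterByExpr on genotype, TMM factors, robust quasi-likelihood test, two-sided, Benjamini-Hochberg adjustment over all genes kept, threshold 0.05. Normalized CPM use the TMM-scaled library size, and fold changes are KO minus WT. Their standard errors were worked back from the test, as the size of the log2 fold change over the square root of the quasi-likelihood F. The test was also run on counts simulated from edgeR's own estimates for these data, which is no independent check of it. Ratios used the deposited RPKM plus 0.01. Near-identical copies were transcripts matching at 95% identity over at least 300 bases. Alternatives used DESeq2 1.42.0, limma 3.58.1, other scalings and filters, and fewer libraries. At these depths, the number of tumours limits precision more than counting error does for all but the lowest genes.

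The members and lists were chosen with earlier results of these data known. The members of smallest p in each step, those whose groups did not overlap and the most abundant of each step are given in full, with the 2 genes of smallest p in each other pathway list. Hcn3, the other overlapping genes, Sulf2, Mlxipl, the single cell type markers and the genes of the closing section were named outside that rule. Some planned pairs and list genes are not reported here.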

Additional observations from a re-analysis of the deposited data

How the results depend on the processing

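No gene and no member passed an FDR of 0.05 under any alternative run except DESeq2, which called 62 genes and 0 members. The sign held in every alternative for 19 of 36 members, among them Pklr, G6pc, Slc2a1, Pdk1 and Fbp1, and for 7 of 10 pairs, among them Pkm to Pklr and Slc2a1 to Slc2a2. The groups of these named members and pairs did not overlap. Leaving libraries out can then hardly turn a sign, so those runs lend them no support. With total reads and no scaling factor, added after seeing the data, the shared median was 0.15 and that of all members 0.02. That setting turned the sign of Aldoa (0.14), Gapdh (0.15), Eno1 (0.02), Pkm (0.05), Pcx (0.02) and Hif1a (0.05). Voom gave 0.05 for Aldoa and 0.02 for Pkm, and a covariate that split the tumours by their description number gave -0.01 for Tpi1 and 0.06 for Pkm. The replicate block gave 0.04 for Aldoa and 0.03 for Pkm and called 0 genes. Deviations from the genotype means correlated at -0.26, 0.22 and -0.43 between same-numbered tumours 1, 2 and 3. With 3 tumours a group, these values cannot show whether the numbers pair the tumours. In the replicate block the unadjusted edgeR p was lower for G6pc (0.0140) and Pck2 (0.0282), and higher for Pklr (0.0165) and Slc2a1 (0.0334). With total reads and no scaling factor the unadjusted edgeR p was 0.0723 for Slc2a1 and 0.0402 for G6pc. With the description number covariate it was 0.0570 for Slc2a1 and 0.0122 for G6pc. Which members lay under 0.05 thus changed with the setting.

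Fewer libraries turned more signs. With 1 library left out, or WT replicate 3 and KO replicate 1 both left out (added after seeing the data), median log2 fold changes ranged from -0.51 to 0.22 for the forms of other tissues, from 0.01 to 0.27 for the adult liver forms, from -0.18 to 0.13 for the shared genes and from -0.20 to 0.21 for all members. Log2 fold changes of single members ranged from -0.44 to 0.25 for Hk1, -0.08 to 0.25 for Pfkl, -0.42 to 0.07 for Pfkm, -0.13 to 0.75 for Pfkfb2 and -1.03 to 0.68 for Pfkfb3. They ranged from -0.29 to 0.30 for Aldoa, -0.57 to 0.37 for Aldoc, -0.10 to 0.15 for Tpi1, -0.20 to 0.20 for Gapdh and -0.08 to 0.35 for Pgam1. The ranges were -0.35 to 0.06 for Eno1, -0.48 to 0.66 for Pkm, -0.72 to 0.37 for Ldha, -0.02 to 0.51 for Slc16a1 and -0.57 to 0.22 for Slc16a3. For Pcx and Hif1a they were -0.43 to 0.06 and -0.28 to 0.21. Differences in log2 ratio ranged from -0.68 to 0.02 for Pfkm to Pfkl, -1.55 to 0.28 for Pfkfb3 to Pfkfb1 and -1.14 to 0.18 for Ldhb to Ldha. Members and pairs that kept their sign moved too, with 1 library left out: Slc2a2 from 0.27 to 0.64, Gckr -0.46 to -0.14, Hk2 -1.28 to -0.12, Hk3 -0.76 to -0.26, Pfkp -0.51 to -0.02, Pfkfb1 0.12 to 0.78, Gpi1 0.08 to 0.76, Ldhb -1.0 to -0.18, Pck1 -1.08 to -0.15, and the pairs Pck2 to Pck1 0.85 to 2.58, Eno1 to Eno3 0.05 to 0.79 and Slc16a3 to Slc16a1 -0.89 to -0.13.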

Other observations

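Single tumours stood far from the others for some genes of glucose metabolism that are no members, named after their values were seen. Hkdc1, a hexokinase-like gene, had 9.22 normalized CPM in WT replicate 3 and 4.04 in KO replicate 1, and 0.125 to 0.253 in the other tumours. P4ha1, a hypoxia-induced prolyl hydroxylase, had 31.3 CPM in WT replicate 3 and 21.3 in KO replicate 1, against 6.37 to 9.64 in the others. Igfbp1, a secreted protein repressed by insulin, had 233, 67.1 and 1805 CPM in WT tumours against 1106, 815 and 17.1 in KO, a log2 fold change of -0.12 ± 1.51.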
